A study of Mus musculus with 20 samples.

Results

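The H3K27ac libraries of fasted mouse liver that lacked Ppara, with or without Cpt2, were compared: 2 livers of the genotype Ppara -/- (Ppara KO) and 2 of the genotype Cpt2 L-/- ; Ppara -/- (DKO), 4 of the 20 samples in the series. All came from male C57BL/6 mice aged 9 weeks that had fasted for 24 hours. Ppara is deleted in both groups and in the whole animal, and Cpt2 is deleted in the liver of the DKO, so the comparison gives the effect of Cpt2 loss where Ppara is absent. The same deletion with Ppara present, Cpt2 L-/- (Cpt2 KO) against wild type (WT), was measured in 4 further H3K27ac libraries and is given beside it, and so is H3K4me1 of the same 4 genotypes. The sources used here do not name the Cre driver of the Cpt2 deletion. The tissue was whole frozen liver, so fewer cells of a type and less mark per cell cannot be told apart.

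The members of the comparison were the 65776 consensus intervals of H3K27ac on mm10. A peak of at least 1 of the 4 libraries overlapped 51179 of them, and none overlapped the other 14597. Peaks of all 4 libraries overlapped 23482 intervals, and these entered the test. A further 4524 intervals had a peak in both DKO livers and in neither Ppara KO liver (gained, 6.88%), 1728 showed the reverse (lost, 2.63%), and 21445 showed another pattern. The value of an interval in a library is the fold enrichment over input of its highest peak. Differences are in log2 units, DKO minus Ppara KO, after each library was centred on its own median over the 23482 intervals.

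Cpt2 encodes carnitine palmitoyltransferase 2, the enzyme of the inner mitochondrial membrane that hands long-chain fatty acids to beta-oxidation. In a fasted liver this oxidation supplies acetyl-CoA for ketone bodies and energy for gluconeogenesis. Ppara encodes the nuclear receptor that fatty acids activate and that drives the genes of fatty acid oxidation during a fast. H3K27ac, acetylation of lysine 27 of histone H3, marks active promoters and enhancers, and H3K4me1 marks enhancers whether active or primed.

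Promoter sequences of 12 genes are shown because an interval holding their transcription start carried a difference described below and because short motifs were searched there. Each is the 250 bases before the RefSeq start on GRCm38.p6, the assembly that mm10 names, read 5′ to 3′ on the strand of the gene. Capitals mark matches to a motif, in either orientation. The first 3 belong to bile acid transporters with lower values in DKO: Slco1a1 (chr6:141946963-141947212, minus strand), Slco1b2 (chr6:141629268-141629517, plus strand) and Abcc2 (chr19:43782058-43782307, plus strand). Capitals mark AGGTCA, the hexamer bound by many nuclear receptors, or its reverse complement. Its matches begin 134 and 24 bases before the start of Slco1a1, 81 bases before that of Slco1b2 and 49 before that of Abcc2.
Slco1a1: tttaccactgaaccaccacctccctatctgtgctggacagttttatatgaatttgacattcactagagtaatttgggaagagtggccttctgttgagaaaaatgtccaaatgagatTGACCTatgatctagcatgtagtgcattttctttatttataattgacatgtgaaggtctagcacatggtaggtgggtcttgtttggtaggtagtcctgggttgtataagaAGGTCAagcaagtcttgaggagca
Slco1b2: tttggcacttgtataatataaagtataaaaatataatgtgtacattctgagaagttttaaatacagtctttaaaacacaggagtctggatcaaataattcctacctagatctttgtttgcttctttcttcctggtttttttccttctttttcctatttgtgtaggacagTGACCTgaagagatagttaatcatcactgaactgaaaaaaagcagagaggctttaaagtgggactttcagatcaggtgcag
Abcc2: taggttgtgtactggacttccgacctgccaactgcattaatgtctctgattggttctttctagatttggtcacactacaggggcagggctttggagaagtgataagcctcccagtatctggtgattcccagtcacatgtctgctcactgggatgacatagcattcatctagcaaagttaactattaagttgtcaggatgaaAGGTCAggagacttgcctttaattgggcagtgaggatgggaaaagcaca

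The next 3 promoters belong to named intervals that hold the start of their gene: Pak4 (chr7:28598185-28598434, minus strand) and Serpina1e (chr12:103956898-103957147, minus strand), lower in DKO, and Pex16 (chr2:92374426-92374675, plus strand), higher in DKO. Msmo1 (chr8:64733579-64733828, minus strand) and Lss (chr10:76531355-76531604, plus strand) are genes of cholesterol synthesis with lower values. Capitals mark CCAAT, the box bound by the factor NF-Y, or its reverse complement. It occurs 3 times in the promoters of Pak4, Serpina1e and Msmo1 and once in those of Pex16 and Lss.
Pak4: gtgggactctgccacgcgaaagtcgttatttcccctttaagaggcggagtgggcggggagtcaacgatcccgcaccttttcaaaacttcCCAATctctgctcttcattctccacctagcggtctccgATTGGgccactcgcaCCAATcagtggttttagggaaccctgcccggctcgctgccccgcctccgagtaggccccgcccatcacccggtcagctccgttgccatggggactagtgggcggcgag
Serpina1e: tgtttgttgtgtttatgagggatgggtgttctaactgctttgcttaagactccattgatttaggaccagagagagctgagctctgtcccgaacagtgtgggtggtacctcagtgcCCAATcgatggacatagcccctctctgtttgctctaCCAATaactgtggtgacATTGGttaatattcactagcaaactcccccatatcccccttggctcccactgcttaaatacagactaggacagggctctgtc
Pex16: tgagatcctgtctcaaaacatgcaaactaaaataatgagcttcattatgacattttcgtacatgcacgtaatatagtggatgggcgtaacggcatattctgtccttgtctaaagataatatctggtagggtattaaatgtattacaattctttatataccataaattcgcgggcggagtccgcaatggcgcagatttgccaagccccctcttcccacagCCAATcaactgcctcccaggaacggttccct
Msmo1: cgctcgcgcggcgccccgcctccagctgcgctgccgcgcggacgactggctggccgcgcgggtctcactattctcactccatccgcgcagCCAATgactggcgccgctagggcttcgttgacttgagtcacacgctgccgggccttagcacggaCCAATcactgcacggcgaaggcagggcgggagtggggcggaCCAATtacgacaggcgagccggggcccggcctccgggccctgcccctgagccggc
Lss: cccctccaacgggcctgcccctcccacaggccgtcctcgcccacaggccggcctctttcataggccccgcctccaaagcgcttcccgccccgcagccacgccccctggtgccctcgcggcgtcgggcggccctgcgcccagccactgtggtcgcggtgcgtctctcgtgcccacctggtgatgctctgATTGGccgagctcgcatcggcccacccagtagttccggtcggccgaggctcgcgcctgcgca

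Atf3 (chr1:191183334-191183583, minus strand) and Gars (chr6:55037751-55038000, plus strand) belong to the integrated stress response. Capitals there mark TGATGNAAN, the amino acid response element bound by Atf4, which begins 111 and 31 bases before their starts.
Atf3: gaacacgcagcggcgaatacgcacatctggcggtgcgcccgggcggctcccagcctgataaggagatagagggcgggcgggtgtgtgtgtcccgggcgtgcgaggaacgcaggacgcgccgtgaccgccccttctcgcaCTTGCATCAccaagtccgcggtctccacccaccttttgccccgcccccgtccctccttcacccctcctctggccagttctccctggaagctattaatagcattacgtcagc
Gars: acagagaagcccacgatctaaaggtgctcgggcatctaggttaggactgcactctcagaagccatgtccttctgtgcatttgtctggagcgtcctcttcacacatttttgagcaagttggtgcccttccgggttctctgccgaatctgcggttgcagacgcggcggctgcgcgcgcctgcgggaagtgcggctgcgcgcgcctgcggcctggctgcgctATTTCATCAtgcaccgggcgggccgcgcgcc

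Ifit1 (chr19:34640639-34640888, plus strand) and Tgtp2 (chr11:49064213-49064462, minus strand) are interferon-inducible genes whose starts lay in gained intervals. Capitals mark GAAA, any 2 bases and GAAA again, an element bound by interferon-regulated factors, or its reverse complement.
Ifit1: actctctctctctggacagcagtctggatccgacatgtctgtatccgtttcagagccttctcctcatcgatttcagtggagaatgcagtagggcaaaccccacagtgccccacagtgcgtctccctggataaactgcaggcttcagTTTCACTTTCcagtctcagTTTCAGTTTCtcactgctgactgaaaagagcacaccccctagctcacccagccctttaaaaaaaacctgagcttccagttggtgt
Tgtp2: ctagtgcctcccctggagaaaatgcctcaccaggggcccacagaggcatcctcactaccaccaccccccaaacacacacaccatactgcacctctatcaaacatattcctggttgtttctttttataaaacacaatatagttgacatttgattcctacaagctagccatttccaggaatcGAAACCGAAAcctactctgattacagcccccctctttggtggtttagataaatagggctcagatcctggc

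Both targeted genes kept acetylated starts in all 4 libraries. The interval at the Cpt2 start (chromosome 4, 107920649 to 107924008) had folds of 8.75 and 9.80 in the Ppara KO livers and of 9.33 and 12.2 in the DKO livers, a log2 difference of -0.12. An interval beyond the opposite end of the gene (107901663 to 107903225, its middle 1538 bases away) had folds of 4.78 and 5.52 in the Ppara KO livers and no peak in either DKO liver. A peak list does not show which part of a gene was deleted, so these values are not a check of the deletion itself. At the Ppara start (chromosome 15, 85730896 to 85741526), absent as a functional gene from both groups, folds were 20.2 and 28.4 in Ppara KO against 32.3 and 43.9 in DKO, a log2 difference of 0.33 with an adjusted p of 0.372 (limma). Inside the Ppara gene body, at 85754441 to 85756430, folds were 13.5 and 8.17 in Ppara KO against 4.33 and 7.05 in DKO, and the DKO livers lay below the Ppara KO livers. A further 3 intervals of the Ppara gene body, at 85748451, 85759093 and 85782240, had peaks in both Ppara KO livers and in neither DKO liver. Tested intervals at 85741614 and 85745608 were lower as well (log2 -0.44 and -0.92, no overlap of livers). Those at 85767440, 85785705 and 85801195 differed by 0.04, -0.07 and 0.16, with livers that overlapped. The first of these is 13436 bases wide.

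Folds ran higher as a whole in the DKO lists. The libraries held 46543 and 44454 peaks in Ppara KO and 48929 and 48124 in DKO, with median folds of 6.75 and 7.17 against 7.75 and 8.21. The smallest peak width in a list was 205 and 210 bases against 217 and 223. Over the shared intervals the medians that served for centring differed by 0.32 on the log2 scale. With 2 livers against 2 the exact permutation test cannot give a two-sided p below 0.333, which each of these 3 measures reached. Smallest width in both Cpt2 KO libraries (221 and 220) also exceeded that in both WT libraries (206 and 198), so it and the Cpt2 genotype cannot be told apart.

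Livers of one genotype resembled each other more than livers of different genotypes. Over the 23482 intervals, centred log2 folds correlated with r of 0.820 between the Ppara KO livers and 0.833 between the DKO livers, and with r from 0.736 to 0.768 across genotypes. These are descriptions over intervals that share libraries and input. One interval passed the limma test at a Benjamini-Hochberg adjusted p under 0.05, a share of 0.00426% in the lower direction, and 0% passed in the higher direction. At an unadjusted p under 0.05 there were 3588 intervals (15.3%), of which 1448 were higher (6.17%) and 2140 lower (9.11%). The DKO livers lay above both Ppara KO livers in 5840 intervals (24.9%) and below both in 5440 (23.2%). Among those that differed by at least 1 on the log2 scale, 77 were higher (0.328%) and 333 lower (1.42%). Without centring the split turned to 11617 intervals higher and 1778 lower, and to 678 higher and 51 lower among the large differences. Directions of log2 differences below are therefore relative to the library medians. Gained and lost intervals rest on peak calls, which centring does not adjust for the larger number of peaks and higher folds in the DKO lists. Without DKO replicate 1, 121 intervals passed, 14 of them higher and 107 lower, and without DKO replicate 2, 8 passed, all lower. Without Ppara KO replicate 1 none passed, and without Ppara KO replicate 2, 2 passed, both higher.

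The interval that passed lies inside Slc2a9, the gene of a urate and sugar transporter, at chromosome 5, 38488771 to 38491968. Its folds were 17.6 and 20.4 in the Ppara KO livers and 3.18 and 4.72 in the DKO livers. Both DKO livers were far below both Ppara KO livers. The log2 difference was -2.61 ± 0.27 (SE, n = 2 per group, limma adjusted p = 0.0163), so acetylation fell there past the threshold. Without Ppara KO replicate 1 or 2 its adjusted p was 0.0599 or 0.0659, with differences of -2.66 and -2.57. The smallest peak width as a covariate gave -3.18 and an adjusted p of 0.699. Where Ppara was present the same interval had folds of 18.7 and 29.8 in WT against 15.1 and 15.3 in Cpt2 KO, a log2 difference of -0.87. H3K4me1 at the interval was alike in the groups, 5.51 and 6.72 in Ppara KO against 6.44 and 7.59 in DKO. A second tested interval of the Slc2a9 gene body, at 38479670 to 38480348, differed by -0.73.

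The next lower intervals did not pass the test. At the start of Pak4 (chromosome 7, 28596024 to 28598283), which encodes a p21-activated kinase and whose promoter is shown above, folds were 17.2 and 15.4 in Ppara KO against 4.38 and 6.15 in DKO, a log2 difference of -1.97 with an adjusted p of 0.0723. Inside Rnf11, the gene of a RING-finger adaptor of ubiquitin ligases, folds were 29.1 and 23.2 in Ppara KO against 9.79 and 10.9 in DKO (log2 -1.65, adjusted p 0.0723, limma). The DKO livers were below the Ppara KO livers in both. Inside Rassf8 the folds were 11.2 and 13.9 against 4.70 and 5.75 (log2 -1.58). Near Rbpjl, a relative of the Notch effector Rbpj, they were 11.9 and 10.8 against 3.86 and 4.88 (log2 -1.70). Inside Ghr, the growth hormone receptor, the DKO livers differed from each other, with folds of 9.55 and 3.86 against 11.2 and 17.9 (log2 -1.54). Inside Proz, the gene of the coagulation cofactor protein Z, the Ppara KO livers differed, with 6.5 and 14.0 against 3.78 and 4.45. The 11 lower intervals after Slc2a9 named by size of difference (Pak4, Tmprss11e, Rbpjl, Nat8, Rnf11, Tmem104, Rassf8, Atoh8, Cdc14b, Ghr and Proz) had differences from -1.97 to -1.54 and adjusted p from 0.0723 to 0.163. Without DKO replicate 1, 11 further named intervals passed, 8 of them lower and 3 higher, and without DKO replicate 2, 4 did, all lower. Pak4 and Rnf11 were among both.

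Of the intervals with higher values in DKO, none passed with all 4 livers. Without DKO replicate 1 the limma adjusted p was 0.0255 at Arhgef2, 0.0482 near Mcam and 0.0479 in Sox5. The largest difference was at the start of Arhgef2, the gene of a guanine nucleotide exchange factor of small GTPases (chromosome 3, 88615669 to 88617544). Its folds were 8.67 and 5.25 in Ppara KO against 18.6 and 33.7 in DKO, a log2 difference of 1.57 with an adjusted p of 0.147 (limma). No WT liver had a peak there. An interval 5080 bases from Mcam, which encodes a cell adhesion molecule of vessels, had folds of 7 and 7.78 in Ppara KO against 22.1 and 26.4 in DKO (log2 1.39). Its folds were 9.38 and 7.5 in WT against 28.8 and 22.8 in Cpt2 KO, so both Cpt2-null groups stood above both Cpt2-intact groups. The same order held inside Sox5, the gene of a transcription factor, with 8.50 and 8.07 against 24.7 and 28.9 (log2 1.37). At the 2 annotated starts of Pex16, a factor of peroxisome membrane assembly, they were 7.07 and 8.29 against 22.5 and 23.4 (log2 1.26). Over the 10 higher intervals given here (Arhgef2, Mcam, Sox5, Hs1bp3, Oacyl, Dusp16, Lrrc27, Tex2, Lrrc20 and Pex16) the differences ran from 1.26 to 1.57 and the adjusted p from 0.0989 to 0.199.

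**Figure D1:**
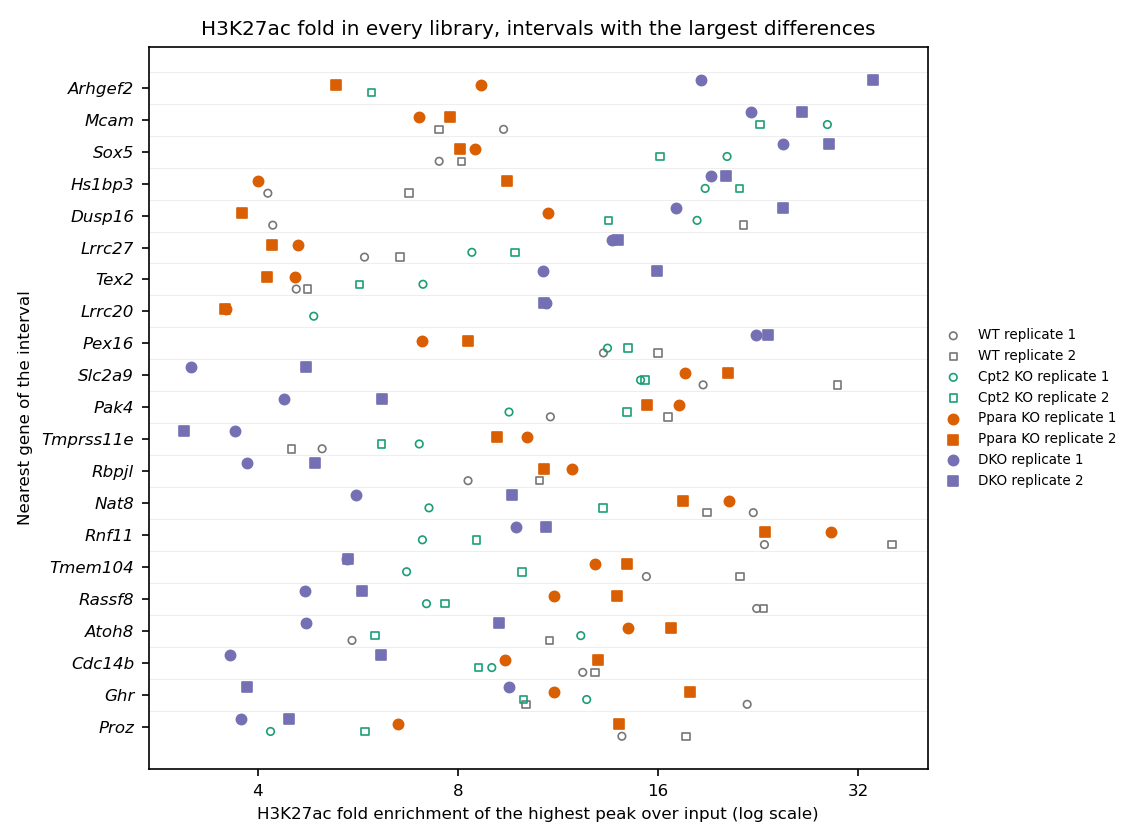
H3K27ac fold enrichment over input (log axis) of the highest peak in the tested intervals named above except that of Oacyl, for each of the 8 livers. Filled symbols are the Ppara KO and DKO livers, open symbols the WT and Cpt2 KO livers, circles replicate 1 and squares replicate 2, and a library with no peak has no symbol. In the 9 upper rows both filled DKO symbols lie to the right of both Ppara KO symbols, and in the 12 lower rows to their left.

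Gene lists were described by the strongest tested interval of each gene. Over all 9691 genes with one, the DKO livers were above both Ppara KO livers in 32.5% and below both in 16.1%, and the median log2 difference was 0.09 (0.41 without centring). None of these intervals passed the adjusted threshold (0%). A gained interval lay within 10 kb of 18.7% of 12576 genes and a lost one of 8.52%. The members of each list are read against these values.

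Genes of bile acid synthesis and transport had low values in DKO. The strongest interval of 19 of the 20 genes could be measured: the DKO livers were below both Ppara KO livers in 11 and above them in 2, with a median of -0.39. Without centring 5 were lower and 4 higher, and the median was -0.07. Slco1a1, an organic anion uptake transporter of the sinusoidal membrane, had folds of 13.2 and 20.4 in Ppara KO against 8.49 and 8.03 in DKO (log2 -1.31). Slco1b2, which takes up bile acids and drugs, had 18.1 and 19.9 against 12.1 and 10.7 (log2 -1.06). Abcc2, which exports organic anions into bile, had 24.7 and 26.1 against 21 and 23.7 (log2 -0.51). The intervals of these 3 genes hold the starts shown above, and their livers did not overlap. Cyp8b1, the 12-alpha-hydroxylase that sets the proportion of cholic acid, had 13.9 and 21.7 against 9.67 and 11.5 (log2 -1.04). Klb, the co-receptor of the hormone that restrains bile acid synthesis, had 11.4 and 20.0 against 9.26 and 10.0 (log2 -0.97). Nr1h4, the bile acid receptor FXR, differed by -0.50 and had 4 lost intervals. Cyp7b1, the oxysterol 7-alpha-hydroxylase, differed by -0.49 and also had 4 lost intervals. Fgfr4 (0.31) and Slc51b (0.60), an exporter of bile acids, lay on the other side. In all, 8 of the 20 genes had a lost interval and 1, Abcb4, a gained one. The median of the list where Ppara was present, Cpt2 KO minus WT, was -0.38.

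Genes of cholesterol synthesis, uptake and export also lay low relative to the library medians. Of 30 genes 26 could be measured, 13 with DKO livers below both Ppara KO livers and 2 above, and the median was -0.30. Without centring 4 were lower and 6 higher and the median was 0.02. Msmo1, the sterol C4-methyl oxidase, had folds of 13.7 and 20.7 in the Ppara KO livers against 12.3 and 10.9 in the DKO livers (log2 -0.86). At Fdft1, squalene synthase, the folds were 13.8 and 16 against 7.71 and 13.9 (log2 -0.85), and 5 intervals of the gene were lost. Of the 6 genes above 0, the DKO livers lay above both Ppara KO livers in 2 that export cholesterol: Abca1 had 13.6 and 12.1 against 19.5 and 23.6 (log2 0.42) with 3 gained intervals and 1 lost, and Abcg1 differed by 0.34 with 1 lost interval. The interval at the start of Abcg8, another export gene of the list, differed by -0.08. Mylip, whose product marks the LDL receptor for breakdown, differed by 0.45, and its livers overlapped after centring. The median Cpt2 KO minus WT difference was -0.40. De novo lipogenesis had 1 of 22 measured genes higher and 8 lower, with a median of -0.22, or 0.10 without centring. Of the 25 genes in this list 6 had a gained interval and 5 a lost one. Its largest difference was that of Fads1, a fatty acid desaturase (log2 -0.87).

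Genes of fatty acid oxidation that Ppara targets were spread around 0. Of 55 genes 40 could be measured, 9 with DKO livers above both Ppara KO livers and 8 below, with a median of 0.04, or 0.36 without centring. Acot2, a mitochondrial acyl-CoA thioesterase, had folds of 9.50 and 9.38 in Ppara KO against 16.2 and 22 in DKO (log2 0.68). Vnn3, of the vanin family, had 10.2 and 10.6 against 8.25 and 7.21 (log2 -0.76). Gained intervals lay near 7 of the genes, among them 2 intervals at Cpt1a, and lost intervals near 7, among them 2 at Acsl1. The 8 ketone body genes had a median of -0.11. The median of the oxidation genes in Cpt2 KO minus WT was 0.12. Of 9 hormone genes of fasting and mitochondrial stress 8 could be measured, 1 higher and 3 lower with no overlap of livers. Their median was -0.14, or 0.18 without centring. They included Fgf21 (8.50 and 11.4 against 7.90 and 9.00, log2 -0.54), Fst (17.5 and 16.7 against 12.3 and 10.2, log2 -0.93) and Gdf15 (16.8 and 16.2 against 24.0 and 38.5, log2 0.56). Gdf15 was the 1 gene above 0. A gained interval lay near 2 of the 9, Fgf21 among them, and a lost one near 3.

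The integrated stress response and serine synthesis list had 8 of 17 measured genes higher in DKO and 1 lower, with a median of 0.21, or 0.53 without centring. Of its 31 genes 14 had no interval called in all 4 libraries. Slc3a2, the heavy chain of amino acid transporters, had folds of 7.29 and 8.89 in Ppara KO against 15.3 and 20.7 in DKO (log2 0.82). Atf3, a transcription factor of the response, had 13 and 12.3 against 16.5 and 24.1 (log2 0.34). Psph, the last enzyme of serine synthesis, had 11.9 and 16.2 against 21.4 and 22.6 (log2 0.34), and Gars, glycyl-tRNA synthetase, 9.38 and 12.3 against 15.9 and 16 (log2 0.25). Chac1, a glutathione-degrading enzyme, was the member on the other side (log2 -0.54). In Cpt2 KO minus WT the list had a median of -0.02, with 3 genes higher and 5 lower.

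Amino acid and hepatocyte genes held some of the larger single differences. Gldc, the glycine decarboxylase, had folds of 27.2 and 27 in Ppara KO against 15.4 and 12.3 in DKO (log2 -1.30, limma adjusted p 0.103), and it differed by -1.75 in Cpt2 KO minus WT. Aass, which starts the breakdown of lysine, had 26.6 and 20.1 against 55.3 and 52.0 (log2 0.89), and it differed by -0.74 in Cpt2 KO minus WT. The urea cycle and amino acid list as a whole had 6 genes higher and 7 lower of 29, with a median of 0.05. Creb1, the cAMP-responsive factor of the fasting response, had 9.00 and 8.38 against 18.4 and 24.8 (log2 0.98). Among 17 factors of hepatocyte identity 3 were higher and 6 lower. A lost interval lay near 7 of the 17 and a gained one near 3, and Hnf4a had both kinds. Hnf4a had 23.5 and 25.1 against 42.0 and 47.8 (log2 0.56), and Foxa2, a pioneer factor, 24.9 and 28.6 against 17.4 and 20.7 (log2 -0.81). Fibrinogen gamma, Fgg, had 12 and 18.7 against 8.65 and 9.63 (log2 -1.03), and the metallothionein Mt2 had 16.6 and 13.9 against 27.1 and 36.2 (log2 0.73). Of 32 acute phase, complement and coagulation genes, 10 had a lost interval, 5 of these intervals at Crp and 3 at Fga, and 4 had a gained one.

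Lists with values in both directions were those of antioxidant targets of Nfe2l2 (7 higher and 7 lower of 30, median -0.11), PPAR family members and partners (6 and 6 of 24, median -0.02), gluconeogenesis and fasting signalling (4 and 6 of 30, median -0.01), and the respiratory chain and its assembly (5 and 2 of 23, median 0.04). Cytochrome P450 genes had 2 higher and 5 lower of 20, with a median of -0.19. Tkt, the transketolase of the pentose phosphate pathway, had folds of 10.4 and 10.3 against 19.7 and 17.9 (log2 0.53). Ucp2, a mitochondrial carrier, had 11.1 and 14.6 against 22.3 and 26.6 (log2 0.62). In neither did the livers overlap. Several families here (Cyp2d, Gsta, Serpina1, Orm) hold near-identical copies. How the authors assigned reads among copies is not given in the sources used here, so their single values are uncertain.

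**Figure D2:**
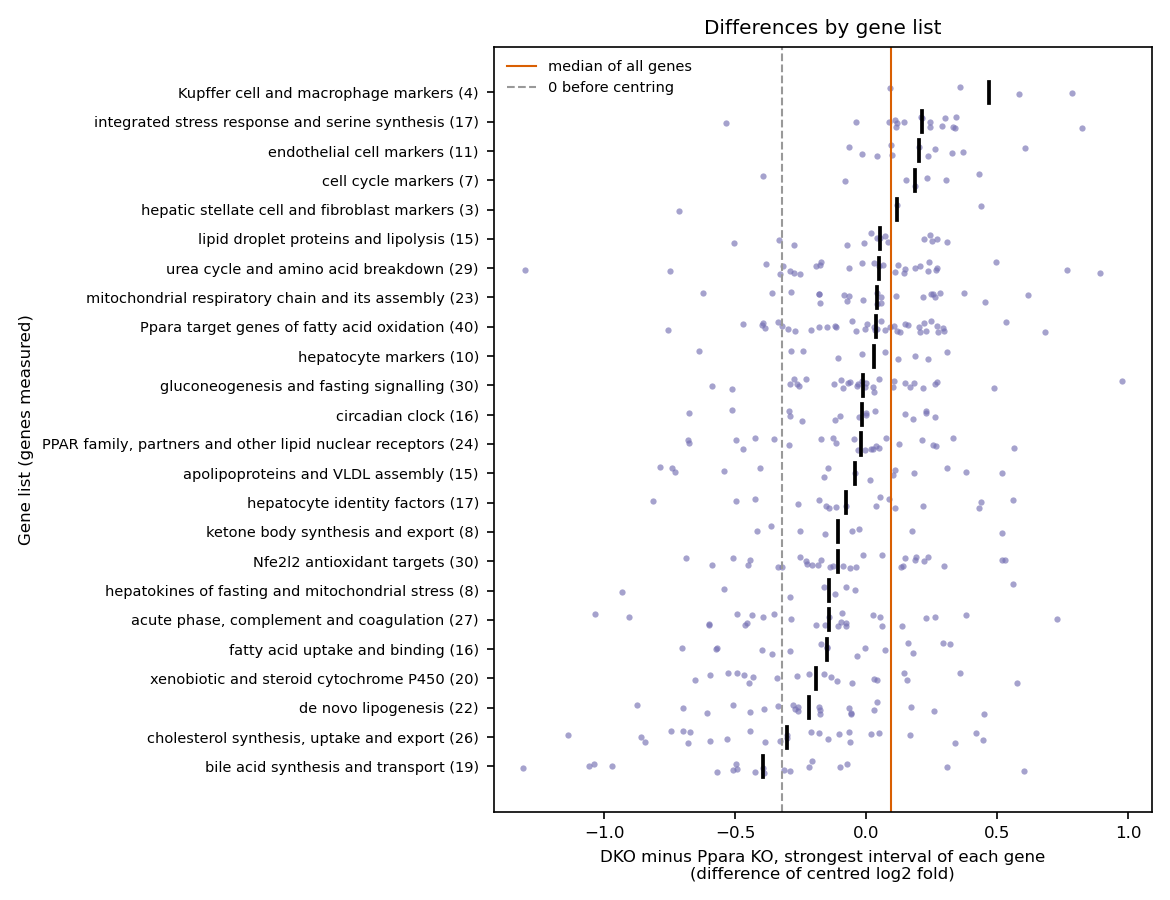
Log2 difference, DKO minus Ppara KO, of the strongest interval of each gene (points) and the median of each list (bars), after centring. The orange line is the median of all 9691 genes (0.09) and the dashed line shows where 0 lay before centring: the cholesterol median (-0.30) is at 0.02 and the bile acid median (-0.39) at -0.07 on that scale.

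Intervals at starts and elsewhere differed in balance. Of the 7118 tested intervals holding a start, the DKO livers were above both Ppara KO livers in 33.4% and below both in 15.2%, with a median of 0.10. Of the 16364 without a start, 21.2% were above and 26.6% below, with a median of -0.05, and they held 298 of the 333 large lower differences. Width went the other way. In the narrowest of 3 groups of equal size (277 to 1252 bases) 28.3% were above and 19.2% below, and in the widest (2321 to 45133 bases) 18.9% were above and 29.3% below, although more of the widest held a start (35.9% against 23.7%).

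The 4524 gained intervals had a median width of 490 bases, against 619 over all intervals. Of them 6.26% held a start (12.8% of all intervals), 54.4% had their middle in a gene body (66.1%) and 12.4% lay over 50 kb from any coding gene (7.92%). Ordered by the lower of the DKO folds, the first was an interval at the start of Cd63, a tetraspanin of late endosomes (chromosome 10, 128909097 to 128910484), with 16.4 and 18.5 in DKO, no peak in Ppara KO and 5 and 6.36 in WT. An interval inside Maml3, the gene of a Notch coactivator, had 16 and 21.2. Casp4, an inflammatory caspase, had 12 and 12.3 at an interval with 2 of its starts (chromosome 9, 5308616 to 5309308), and 7.16 and 8.29 in Cpt2 KO, with no peak in WT. The intervals named at Maml3, Wwox, Relt, Tbc1d5, Ccdc146 and St6galnac3 likewise had peaks in all 4 Cpt2-null livers and in none of the 4 Cpt2-intact livers. Cacna1c, the gene of a calcium channel subunit, had the most gained intervals, 8 of the 9 assigned to it, with folds from 4.60 to 14.1 and none gained in Cpt2 KO against WT. Ttll5 had 7 gained of 9. App, the amyloid precursor gene, had 7 of 24, and Etv6, a transcription factor gene, 7 of 34. Itga9, an integrin gene, had 7 of 32, and Fmnl2, Hecw2, Msi2, Rbms3 and Wdfy3 had 7 each. Itga9 also had 1 lost interval.

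Of the 1728 lost intervals 24 held a start (1.39%, against 12.8% of all intervals). Their middle lay in a gene body in 70.7% (66.1% of all), and their median width was 716 bases (619 over all). Cyp2f2, a cytochrome P450, had folds of 10.7 and 10.7 in the Ppara KO livers at an interval called in both WT livers (13.5 and 12.7) and in no Cpt2-null liver. The start of Serpina1e, of the alpha-1-antitrypsin family, lies in a lost interval (chromosome 12, 103956398 to 103957388) with 10.2 and 12 in Ppara KO, 15.8 and 10.4 in WT and no peak in Cpt2 KO or DKO. Intervals near Serpina3n, a protease inhibitor of the acute phase, and near Cys1 showed the same pattern. Inside Adnp, Slc16a12 and Dnmt3a, by contrast, and near the histone gene H3c6, the lost interval had peaks in both Cpt2 KO livers. Gfra1 had the most lost intervals, 8 of 48, followed by Rbm47 and Stard13 with 7 each and by Chd9, Clmn, Mtus1, Nfib, Rxra and Ttc39c with 6 each. Rbm47 (56 intervals) and Stard13 (40) also had 2 gained intervals each, and Nfib (51) had 1. Rxra, the partner with which Ppara binds DNA, had 6 of 25 lost and none gained.

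**Figure D3:**
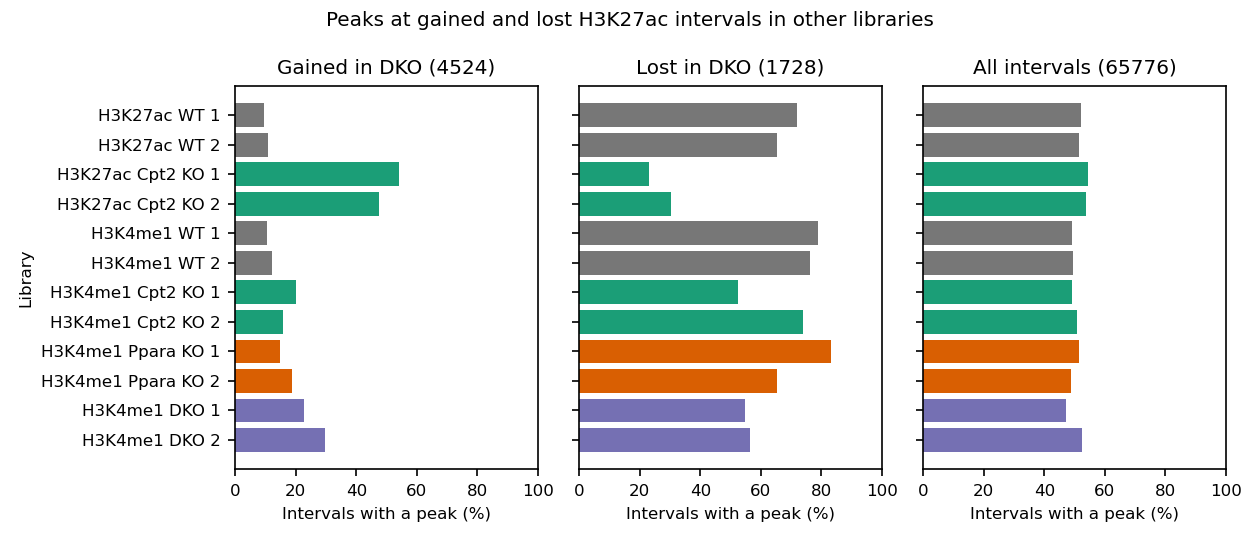
Share of intervals with a peak in libraries that did not choose them, for the gained, the lost and all intervals, where bars start at 0 and each stands for 1 library. Gained intervals have a peak more often in the Cpt2 KO H3K27ac libraries (54.0% and 47.7%) than in WT (9.37% and 10.9%), and lost intervals less often (23.1% and 30.4% against 71.9% and 65.5%).

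The gained and lost intervals were then read in the 4 H3K27ac libraries of mice with Ppara, which had no part in choosing them. Gained intervals had a peak in 9.37% and 10.9% of cases in the WT livers and in 54.0% and 47.7% in the Cpt2 KO livers, against 52.2%, 51.5%, 54.5% and 53.8% over all intervals. Lost intervals had one in 71.9% and 65.5% of cases in WT and in 23.1% and 30.4% in Cpt2 KO. Of the gained intervals, 1284 (28.4%) were gained in Cpt2 KO against WT too, where 9.72% of all intervals were gained, and 33 (0.729%) were lost. They were 20.1% of the intervals gained there. Of the lost intervals, 543 (31.4%) were lost there too, against 6.64% of all intervals, and 23 (1.33%) were gained. They were 12.4% of those lost there.

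Differences in fold followed the same order over the 18281 intervals called in all 8 libraries. The difference DKO minus Ppara KO and the difference Cpt2 KO minus WT correlated with r = 0.336 and a Spearman coefficient of 0.327 over intervals, a description with no test. The comparisons share no H3K27ac library but share the pooled input, the consensus intervals and the order of smallest widths. Of 4477 intervals with DKO livers above both Ppara KO livers, 42.8% had Cpt2 KO livers above both WT livers, against 27.4% of all, and 16% had them below. Of 4351 with DKO livers below, 46.2% were below there too, against 31.2% of all, and 14.8% were above. The 263 large lower differences that had a value in both had a median of -0.61 in Cpt2 KO minus WT and 17.1% above 0, where all tested intervals had -0.04 and 47.1%. The 45 large higher ones had a median of 0.43 and 77.8% above 0. Rnf11 (-1.65 without Ppara, -2.12 with it), Rassf8 (-1.58 and -1.85), Mcam (1.39 and 1.38) and Hs1bp3 (1.36 and 1.69) had differences of like size in both. Cpt2 KO against WT alone gave 798 higher intervals (3.81%) and 1295 lower ones (6.18%) of 20947 at the adjusted threshold of limma.

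The difference between the settings itself passed the limma interaction test in 1 of 18281 intervals (0.00547%), and 2771 (15.2%) had an unadjusted p under 0.05. That interval lies 21721 bases from Rpia, the ribose 5-phosphate isomerase gene (chromosome 6, 70812513 to 70815280), and holds the start of the gene model Gm30331. Its folds were 22.8 and 25.1 in Ppara KO against 35.2 and 35.4 in DKO (log2 0.24). They were 3.78 and 4.62 in WT against 27 and 24.9 in Cpt2 KO. The 2 WT livers stood apart from the other 6, and the interaction was -2.16 ± 0.28 (SE, adjusted p = 0.0421).

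**Figure D4:**
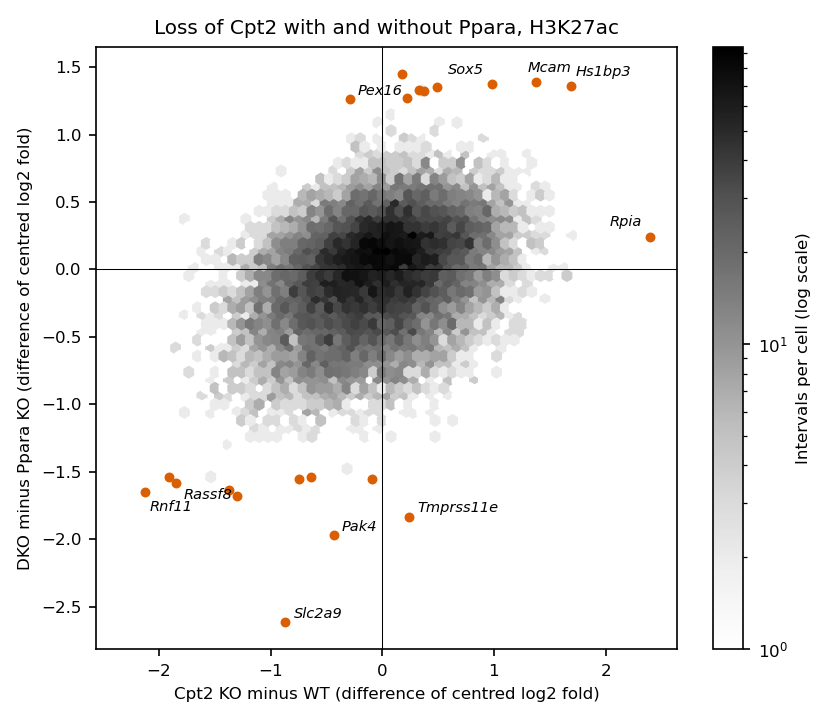
Log2 difference of centred folds with Ppara absent (vertical, DKO minus Ppara KO) against that with Ppara present (horizontal, Cpt2 KO minus WT) for 18281 intervals, where darker cells hold more intervals on a log scale and orange points are named intervals. Mcam, Sox5 and Hs1bp3 lie at the upper right and Rnf11 and Rassf8 at the lower left, while Slc2a9 and Pak4 lie low with smaller differences on the horizontal axis.

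H3K4me1, which the choice of intervals did not use, was read at the same places. Lost intervals had an H3K4me1 peak in 83.3% and 65.3% of cases in the Ppara KO libraries and in 54.9% and 56.3% in the DKO libraries. Gained intervals had one in 14.8% and 18.9% against 22.7% and 29.7%, where over all intervals the shares were 51.6% and 48.9% against 47.3% and 52.6%. The H3K4me1 lists differed in breadth, covering 53.3 and 42.7 Mb in Ppara KO against 38.8 and 46.0 Mb in DKO. Within Cpt2 KO, lists of 41.4 and 53.5 Mb had a peak at 52.4% and 73.8% of the lost intervals. The part of breadth in these shares was not tested. Where H3K4me1 was called in all 4 Ppara KO and DKO libraries, its log2 difference had a median of -0.22 over 771 lost intervals, 0.23 over 400 gained ones and 0.03 over 13509 tested ones. The differences of the 2 marks correlated with r = 0.252 and a Spearman coefficient of 0.233 over those 13509. No interval passed the adjusted threshold for H3K4me1 in limma (0% of 22496), and 1185 (5.27%) had an unadjusted p under 0.05. Near Nat8 both marks had lower folds in DKO, with 20.5 and 17.5 against 5.63 and 9.66 for H3K27ac and 13.8 and 10.4 against 5.17 and 7.09 for H3K4me1. At Arhgef2 both were higher, H3K4me1 with 7.94 and 5.69 against 11.3 and 15.3.

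Kupffer cell and macrophage markers had higher summed folds in the livers without Cpt2. The 13 markers had 9 and 11 called intervals in the Ppara KO livers and 26 and 30 in the DKO livers, with summed folds of 71.5 and 91.2 against 216 and 283. In WT the sums were 51.0 and 48.5, and in Cpt2 KO 135 and 140. They held 10 gained intervals, at Clec4f, Csf1r, Cd5l, Timd4, Adgre1 and Vsig4, and no lost one. Hepatocyte markers held 8 gained intervals and 1 lost one, endothelial markers 6 and 4, and stellate cell markers 3 and 0. Clec4f, a lectin that defines Kupffer cells, had highest folds of 9.3 and 8.85 in Ppara KO against 16.2 and 21.6 in DKO. Cd5l, a secreted macrophage protein, had no peak in Ppara KO and highest folds of 6.97 and 9.85 in DKO. Of the 4 Kupffer cell and macrophage markers with a tested interval 3 were higher, with a median of 0.47, or 0.28 without DKO replicate 2. The differences of these 4 ran from 0.09 to 0.79, where the median over all genes was 0.09. Cd68 had highest folds of 14 and 15.7 in Ppara KO against 18.25 and 21.25 in DKO. Timd4 and Lyz2 also had a peak in Ppara KO replicate 2 (6.28 and 6.82). Gpnmb had peaks in the Cpt2 KO livers only. Marco, Trem2 and Spp1, other macrophage genes, had no peak in any library.

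Stellate cell and fibroblast markers had summed folds of 67.3 and 70.8 in Ppara KO against 109 and 149 in DKO, and endothelial markers 662 and 510 against 826 and 749. Stellate cell sums were also higher in Cpt2 KO (183 and 162) than in WT (87.6 and 87.4). So were endothelial sums, with 836 and 735 in Cpt2 KO against 449 and 382 in WT. These sums are not centred. After centring, 0 of the 3 stellate cell markers with a tested interval were higher with no overlap of livers and 1 was lower. Of the 11 endothelial markers 2 were higher and 0 lower in this sense. The medians were 0.12 and 0.20, against 0.09 over all genes. In Cpt2 KO minus WT, 9 of 10 endothelial markers were higher and 1 lower, with a median of 0.55. Kupffer cell and macrophage markers had 2 of 3 higher there, with a median of 0.29. Of the 11 endothelial markers, 5 had a gained interval and 4 a lost one. Cholangiocyte and progenitor markers overlapped between the groups, with sums of 38.8 and 59.4 in Ppara KO against 45.5 and 57.9 in DKO. Hepatocyte markers had 298 and 389 against 557 and 435, and 332 and 322 in WT against 322 and 235 in Cpt2 KO. Of these 12 markers 10 had peaks in each of the 8 libraries, Alb, Ttr and Cps1 among them, and Apoa1 and Apoa2 had no assigned peak in any. The T and B cell genes Cd3e, Cd8a, Ms4a1 and Cd79a had no assigned peak in any H3K27ac library. Cd4 had one in both WT livers (highest folds 10.1 and 6.85), in Ppara KO replicate 2 (5.44) and in DKO replicate 2 (4.09), and Cd3d had one in DKO replicate 2 (7.93). Ptprc, the common leukocyte antigen, had 3 gained intervals. Csf3r was the one neutrophil marker with a peak, in the DKO livers. The part of these cells in the gained intervals, in the Casp4 and Cd300a values and in the other differences was not tested.

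**Figure D5:**
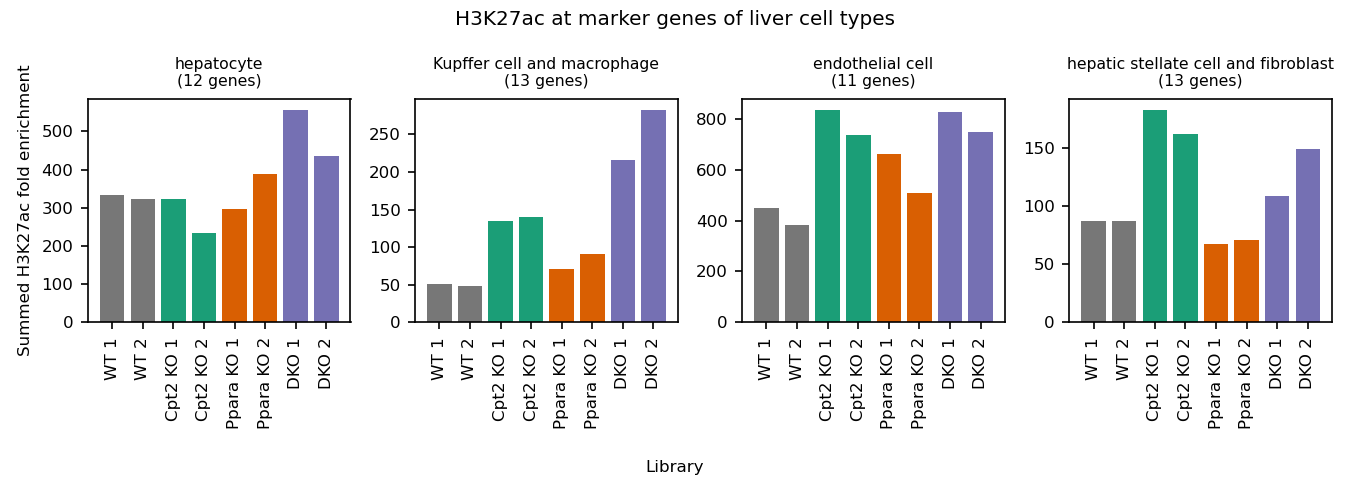
Summed H3K27ac fold enrichment over all called intervals of the marker genes of 4 liver cell types in each of the 8 libraries, with bars that start at 0 and a scale of its own for each type. Kupffer cell markers run from 71.5 and 91.2 in Ppara KO to 216 and 283 in DKO.

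The motif content of the promoters was counted over the 250 bases before 32851 RefSeq starts of 27025 genes, in both orientations, for 14 motifs. CCAAT occurred in 33.8% of all promoters, in 33.1% of those in an interval called in all 4 libraries, and in 36.7% of the 313 in gained intervals. The interferon element (GAAA, any 2 bases, GAAA) occurred in 2.98% of all promoters, in 2.54% of those in an interval called in all 4 libraries and in 6.07% (19) of those in gained intervals. In lost intervals 2 of 24 promoters held it (8.33%). Ifit1 is among the 19. Its interval (chromosome 19, 34640330 to 34641057) had folds of 7.85 and 9.49 in DKO and 6.00 and 9.33 in Cpt2 KO and no peak in WT or Ppara KO. Tgtp2, an interferon-inducible GTPase (chromosome 11, 49063997 to 49064632), had 7.81 and 6.84 in DKO and 6.88 and 8.01 in Cpt2 KO. Ctss, a lysosomal cysteine protease of antigen-presenting cells, had 7.25 and 11.5 and then 6.5 and 4.33. These 3 genes were chosen after their values were seen. A match is a string of letters and shows no binding.

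In the gene lists, AGGTCA occurred in 8 of 16 promoters of bile acid genes (50%) against 14.0% of all promoters, and in 11 of 49 of the Ppara targets (22.4%). TGATGNAAN occurred in 8 of 30 promoters of the integrated stress response list (26.7%) against 3.44% of all, and CCAAT in 15 of 23 cholesterol promoters (65.2%) against 33.8%. CCAAT also occurred in 27 of 49 Ppara target promoters (55.1%) and in 15 of 30 of the stress response list (50%). The matches stood beside values of either sign: among start-holding intervals of bile acid genes with AGGTCA, differences ran from -1.31 at Slco1a1 to 0.60 at Slc51b. The nuclear receptor hexamer also occurred in 5 of 23 cholesterol promoters (21.7%) and in 1 of 30 of the stress response list (3.33%). The 13-base PPAR motif occurred in 0 of 49 Ppara target promoters and the 10-base SREBP motif in 0 of 23 cholesterol promoters. Over all promoters these motifs occurred in 0.0335% and 0.192%, so a count of 0 in such short lists cannot show depletion. The median promoter in gained intervals was 55.2% G and C with 10 CpG pairs. That in intervals called in all 4 libraries was 60% with 16, and that in the 24 lost ones 51.8% with 3.5.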

How the data were processed

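ChIP-seq libraries of H3K27ac and H3K4me1 from 2 livers of each of 4 genotypes were used, each placed in its group by its sample title. Reads were aligned with BWA to mm10 and peaks called with MACS2 2.1.0, per the submitters' processing notes, 1 list per library. The fold in each list is a ratio over the local background of the pooled input, deposited by the authors for every peak and not pooled over replicates. The −log10 p and −log10 q of a peak are also the authors' deposited values. Duplicate handling, scaling and the calling threshold are not given in the sources used here, and read depth is unknown. Peak names in the list of Ppara KO replicate 2 do not spell the build as mm10. Its folds correlated with those of its replicate with r of 0.820, against 0.833 for the DKO pair.

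Per interval and library the highest overlapping peak (1 shared base or more) gave the fold, which was taken as log2 and centred on the library median over the 23482 intervals called in all 4 libraries. Differences were tested with limma 3.58.1 (lmFit, eBayes with trend) in R 4.3.3, with Benjamini-Hochberg adjusted p under 0.05, and the script was tested on simulated data. Whole-library measures had exact permutation tests. Tables were joined and drawn with Python 3.11.15, pandas 2.3.3, numpy 2.4.6 and matplotlib 3.10.9. The gene of an interval is the nearest of 21900 coding gene bodies of RefSeq on GRCm38.p6 to its middle, within 10 kb. Starts and promoters come from the RefSeq promoter table, and exons and introns were not used. Of 540 genes in the lists 536 were found and 411 had a tested interval. Peak names give each liver a number of its own, and the labels do not otherwise say that livers of one number or group are separate animals, so p-values measure the spread between these samples. Same-numbered livers of the groups did not deviate together (r = 0.043), so numbers were not used as pairs.

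Named intervals were the 12 of largest difference in each direction with a nearest gene within 10 kb, past the threshold or, for the places left, of an unadjusted p under 0.05 with no overlap of livers. They were joined by the 12 gained and 12 lost intervals with the highest lower fold, the 6 genes (with ties) holding most gained or lost intervals, Cpt2, Ppara, intervals of the interaction and members of the gene lists. The members, gene lists and tests were chosen with earlier results of these data known. A few genes that this rule names are not reported here.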

Additional observations from a re-analysis of the deposited data

Results flagged for a closer look

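At the interval near Rpia the interaction of Cpt2 and Ppara loss was -2.16 on the log2 scale (limma adjusted p = 0.0421): the effect of Cpt2 loss differed with and without Ppara. The start of Pex16 differed by 1.26 without Ppara and by -0.29 with it, and the Tmprss11e interval by -1.83 and 0.24. In both, every DKO liver lay on one side of the Ppara KO livers and every Cpt2 KO liver on the opposite side of the WT livers after centring. Their interactions were 1.56 (limma adjusted p = 0.0837) and -2.06 (adjusted p = 0.0774), which did not pass the threshold.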

How the results depend on the processing

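Centring decided the balance of directions among the tested intervals. Without it 463 intervals passed the limma threshold instead of 1, 437 higher and 26 lower, 11617 had DKO livers above and 1778 below, and 678 and 51 of these differed by at least 1 log2. The list medians became 0.36 (Ppara targets), 0.017 (cholesterol), -0.074 (bile acids) and 0.79 (Kupffer cells). With uncalled libraries set to their smallest fold 5883 passed, and with the smallest width as a covariate 0 did (1639 at an unadjusted p under 0.05). Peaks of a −log10 q of at least 10 left 51 large higher intervals, a difference of 5465 in peak number and a reversed difference of -1.02 percentage points in peaks near a gene end. The cholesterol median was -0.20 within 50 kb and -0.26 within 1 kb. The cause of these shifts was not tested.

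With the replicate block 1 interval passed, Slc2a9 with an adjusted p of 0.0347, and no other named call changed. Leaving out 1 liver gave from 0 to 121 intervals past the threshold. The counts without overlap ranged from 8597 to 9198 higher and from 8318 to 8598 lower, the large ones from 147 to 254 and from 461 to 799, the gained from 6227 to 9727 and the lost from 2638 to 5521, where fewer livers must differ. List medians ranged from 0.01 to 0.06 (Ppara targets), -0.30 to -0.21 (cholesterol), -0.54 to -0.36 (bile acids) and 0.28 to 0.66 (Kupffer cells). Of 301 values of the 24 named intervals under other settings, 262 kept their side of the threshold, 36 passed it newly, 3 lost it and 0 turned sign. Depth in reads is unknown, so no counting error can be given for a fold.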

Other observations

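Gene groups not described above had values in both directions, and none of their strongest intervals passed the limma test. Lipid droplet and lipolysis genes had 3 of 15 higher and 3 lower, with a median of 0.05. Pnpla2, the lipase that starts triglyceride breakdown, had folds of 12.9 and 13.2 in Ppara KO against 17.3 and 23.6 in DKO (log2 0.31), and Lipe, hormone-sensitive lipase, 14.3 and 16 against 21.0 and 24.7 (log2 0.27). Cideb, a protein of lipid droplets and lipoprotein loading, had 23.3 and 19.9 against 18.8 and 19.0 (log2 -0.50). Apolipoprotein and VLDL assembly genes had 3 of 15 higher and 6 lower, with a median of -0.04. Apom, a carrier of sphingosine phosphate, had 6.38 and 8.08 against 4.79 and 5.62 (log2 -0.79). Both groups of livers stood apart in each of these genes. No gene of that list had a gained interval, and 4 had a lost one.

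Clock genes had 3 of 16 higher and 4 lower, with a median of -0.01. Tef, an output factor of the clock, had folds of 28.6 and 32.3 in Ppara KO against 25.5 and 27.8 in DKO (log2 -0.51), and Clock itself 10.5 and 14.0 against 16.6 and 19.8 (log2 0.26). Ppargc1a, the coactivator of fasting metabolism, had 3 gained intervals, of which the interval at chromosome 5, 51591404 to 51592619, had 8.14 and 6 in DKO, 9.5 and 8 in Cpt2 KO and no peak in WT. Insr, the insulin receptor gene, had 3 lost intervals, and Igf1, a growth factor gene, had 2.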
